A study of Mus musculus with 24 samples.

Results

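The subunits of the oxidative phosphorylation machinery were taken as the genes of complexes I to V whose symbol begins with Nduf, Sdh, Uqcr, Cox or Atp5 in the form used for a subunit, or that are protein-coding genes of the mitochondrial genome. They were chosen by symbol and by their summed counts: of 110 such genes, 90 had at least 240 counts over the 24 libraries and 20 did not. The 90 members were 0.162% of the 55487 genes listed, with 80 encoded in the nucleus and 10 in the mitochondrial genome. Of the nuclear members 36 belong to complex I, 4 to complex II, 8 to complex III, 15 to complex IV (Ndufa4 included) and 17 to complex V. The mitochondrial members were mt-Nd1, mt-Nd2, mt-Nd4, mt-Nd5 and mt-Nd6 of complex I, mt-Cytb of complex III, mt-Co1, mt-Co2 and mt-Co3 of complex IV and mt-Atp6 of complex V. The members with the fewest counts were mt-Co3 (271), mt-Atp6 (300.0), Cox6b2 (319), mt-Co2 (325) and Cox7a1 (421), and just under the minimum were Cox4i2 (225), Ndufa4l2 (62) and mt-Nd3 (58). mt-Atp6 reached the minimum only through KO_Ag replicate 2, which held 110 of its counts, so its values and its membership rest on that library. All 90 members were among the 14099 genes with enough counts to be tested, so no member was lost to the filter on low counts.

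The electron transport chain passes electrons from NADH and succinate to oxygen through complexes I to IV and pumps protons across the inner mitochondrial membrane, and complex V, the ATP synthase, uses that gradient to make ATP. Complex II is encoded wholly in the nucleus, whereas the other complexes join nuclear subunits to a few core membrane subunits transcribed inside the organelle as long precursors from both DNA strands. In macrophages, inflammatory activation is known for a shift from respiration toward glycolysis and for the use of the chain as a source of reactive oxygen, and the 2 genomes must supply parts of the same complexes.

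RNA came from co-cultures of 2 mouse cell populations. Macrophages were grown from bone marrow that was either WT or Tmem175-/- (knockout, KO), and spleen lymphocytes came from mice bearing B16-F10-OVA tumours, a melanoma line that carries ovalbumin. Tmem175 encodes a lysosomal cation channel. Each macrophage genotype had a group without antigen (WT_none, KO_none), a group given antigen of the B16-F10-OVA cells (WT_Ag, KO_Ag) and 2 groups with that antigen and 500 pg/ml of IL-1β (WT_Ag_IL1b, KO_Ag_IL1b) or IL-18 (WT_Ag_IL18, KO_Ag_IL18), with 3 libraries in each of the 8 groups. The labels give no genotype for the lymphocytes, no time in culture, no ratio of cells and no age. They do not say whether the replicates are separate mice or cultures, so that the p-values cover no more than the spread among these samples, which may be technical. No group held macrophages or lymphocytes alone, and in bulk RNA of a mixed culture fewer cells of a type and less RNA per cell cannot be told apart. Levels are CPM, counts scaled to a common library size with TMM factors. Differences are log2 fold changes ± SE, and a member was called higher or lower at an adjusted p under 0.05 in edgeR's quasi-likelihood test with Benjamini-Hochberg adjustment over all 14099 genes.

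Tmem175 was at 26.1, 25.5 and 24.4 CPM in the WT_none libraries and at 15, 14.1 and 14.6 in KO_none, at 13.7, 16.3 and 15.7 in WT_Ag and 7.61, 8.75 and 8.12 in KO_Ag. It was at 15.5, 16 and 15.9 CPM in WT_Ag_IL1b and 8.18, 9.24 and 8.45 in KO_Ag_IL1b, and at 12.8, 16 and 14.6 in WT_Ag_IL18 and 7.83, 8.80 and 8.13 in KO_Ag_IL18. Every knockout library was thus below every WT library of the same condition, but none was at 0 (log2 fold changes of -0.91 to -0.79, adjusted p at most 2.46e-08). In 11 of the 12 knockout samples the genotype field names another gene, and the title names Tmem175. The libraries held 17744540 to 24898552 counts. The summed level of 8 macrophage markers was 12543 to 24286 CPM over the groups and that of 8 T cell markers 11 to 20.1, while the 6 melanoma markers summed to at most 0.615.

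Part of the mitochondrial set is written a second time in the nucleus, and the copies are shown because a short read from them cannot be placed in 1 genome. In the GENCODE vM21 transcripts (GRCm38), 50-base windows of mt-Co2 (chrM:7013-7696, plus strand) recur in the nuclear pseudogene Gm28661 (chr1:24614885-24615565, minus strand) over 99.5% of their positions (100% over all genes that share one), those of mt-Co3 in Gm28437 over 99.9% and those of mt-Atp6 in Gm10925 over 99.5%. Over the 681 bases of Gm28661, the 783 of Gm28437 (the copy of mt-Co3) and the 678 of Gm10925 (the copy of mt-Atp6) the alignment to the mitochondrial gene has 0 mismatches. Bases 101 to 190 of mt-Co2 and of Gm28661 read the same:
mt-Co2: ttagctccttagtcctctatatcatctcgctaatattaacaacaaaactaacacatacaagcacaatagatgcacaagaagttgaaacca
Gm28661: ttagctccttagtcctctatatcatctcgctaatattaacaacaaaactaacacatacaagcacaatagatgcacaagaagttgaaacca
mt-Nd3 (chrM:9459-9806, plus strand), which fell short of the count minimum, differs from its copy Gm28438 (chr1:24612775-24613119, minus strand) by 1 substitution over 345 bases, T3C, counted from the first base of the mitochondrial gene. The capital letter in bases 1 to 90 marks it:
mt-Nd3: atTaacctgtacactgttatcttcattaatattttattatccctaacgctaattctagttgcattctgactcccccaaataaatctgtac
Gm28438: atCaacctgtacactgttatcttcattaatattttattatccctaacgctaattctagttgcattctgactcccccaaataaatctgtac
For mt-Nd4 62.2% of windows recur in another gene, for mt-Co1 51.1%, for mt-Nd2 8.19% and for mt-Nd5 7.61%, and for mt-Nd1, mt-Cytb and mt-Nd6 0%. Of the 80 nuclear members 45 share at least 1 window with another gene and 0 share over 50%, counted over each gene's longest transcript. That transcript has 4371 bases for Ndufb2 and 6310 for Atp5l, so the share over a shorter form may be higher. How reads that match several places were counted is not given in the sources used here, so the values of mt-Co2, mt-Co3 and mt-Atp6 are uncertain, and those of mt-Co1 and mt-Nd4 in part.

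Without antigen the mitochondrial members took 2.72% to 2.85% of all counts in the 3 WT_none libraries and the 80 nuclear members took 0.594% to 0.599%. Levels were divided by the length of each gene's longest transcript, which need not be the form expressed. mt-Co1, the catalytic core subunit of complex IV, stood first with a mean of 8445 CPM per kb over the 3 WT_none libraries. It was followed by mt-Cytb (3448), mt-Nd1 (2895), mt-Nd5 (2183), mt-Nd2 (1611) and mt-Nd4 (1011). mt-Nd6, the member read from the opposite DNA strand to the others, was at 7.79 CPM per kb, and mt-Co2, mt-Co3 and mt-Atp6 at about 1.19, 1.12 and 0.812. Among the nuclear members the highest were Cox4i1 (304 CPM per kb), which encodes the common form of subunit 4 of complex IV, Cox6b1 (255) and Atp5b (244), the catalytic beta subunit of the ATP synthase. The lowest were Ndufb2 (0.456), Cox6a2 (0.839), Cox6b2 (0.893) and Cox7a1 (1.38), of which the last 3 encode tissue-restricted forms of complex IV subunits. The 6 abundant mitochondrial members were all above the highest nuclear member on this per-length scale. The libraries were made from poly(A) RNA, so a mitochondrial transcript's level also depends on how well its short tail was captured, which was not tested.

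With tumour cell antigen the members of the 2 genomes went different ways. Of all 14099 genes tested, 68% were called in the WT co-cultures (33.5% higher, 34.5% lower) and 68.3% in the knockout co-cultures (33.8% higher, 34.6% lower), so that a call alone says little here. Of the 10 mitochondrial members 6 were lower and 1 higher with antigen in the WT co-cultures, with a median log2 fold change of -0.88. In the knockout co-cultures 6 were lower and 0 higher, with a median of -0.75 (-1.01 without the 3 members under 400 counts). Of the 80 nuclear members 47 were higher, 14 lower and 19 not called in the WT co-cultures, with a median of 0.23. In the knockout co-cultures 52 were higher, 12 lower and 16 not called, with a median of 0.21. The median of all genes tested was 0.00 and 0.01. The WT and knockout antigen comparisons share no libraries: 44 nuclear members were higher in both and 12 lower in both, 0 had opposite calls, and the same 6 mitochondrial members were lower in both. Over all 14099 genes 4083 were higher in both, 4210 lower in both and 48 had opposite calls, so such agreement was common to most genes. Of the genes higher in the WT co-cultures 86.4% were also higher in the knockout, against 93.6% of the nuclear members higher there. In the other direction, 85.8% of the genes higher in the knockout were also higher in the WT, against 84.6% of the nuclear members.

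mt-Cytb, the cytochrome b subunit at the quinone sites of complex III, fell most. It was at 3996, 3968 and 3871 CPM in WT_none and 1257, 1129 and 1315 in WT_Ag. The values were 3998, 3783 and 3970.1 in KO_none and 1105, 1163 and 1173 in KO_Ag. Every antigen library was at 0.276 to 0.340 times the level of any library without antigen of its genotype. The log2 fold change was -1.68 ± 0.06 (adjusted p = 1.89e-18) in the WT and -1.77 ± 0.06 (adjusted p = 6.12e-19) in the knockout co-cultures.

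The 5 mitochondrial members of complex I, which build its proton-pumping membrane arm, were all lower with antigen in both genotypes. mt-Nd5 was at 4092, 3943 and 3909 CPM in WT_none and 1941, 1892 and 2047 in WT_Ag. In the knockout it was at 4260.5, 3868 and 4193 in KO_none and 1534, 1818 and 1718 in KO_Ag. mt-Nd1 was at 2835, 2794 and 2684 CPM in WT_none and 1554, 1461 and 1521 in WT_Ag. Knockout levels were 2681, 2601 and 2655 in KO_none and 1434, 1541 and 1511 in KO_Ag. The groups with and without antigen did not overlap for either gene, and the log2 fold changes were -1.02 in the WT and -1.28 in the knockout co-cultures for mt-Nd5 and -0.87 in the WT and -0.82 in the knockout co-cultures for mt-Nd1. mt-Nd2 changed by -0.93 and -1.01 and mt-Nd4 by -0.89 and -1.02, in the same order, with adjusted p from 1e-18 to 1.12e-11 over these 4 genes and both genotypes. mt-Nd6 was at 3.95, 4.20 and 3.99 CPM in WT_none and 1.92, 1.76 and 2.02 in WT_Ag. The values were 3.29, 3.35 and 3.46 in KO_none and 2.00, 2.09 and 2.25 in KO_Ag. Its groups with and without antigen did not overlap, with log2 fold changes of -1.09 ± 0.16 (adjusted p = 9.35e-07) and -0.67 ± 0.16 (adjusted p = 0.000573).

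mt-Co1, which binds the haems and copper where oxygen is reduced, was not among the members called lower. It was at 13169, 12805 and 13168 CPM in WT_none and 13811, 14473 and 14089 in WT_Ag. In the knockout it was at 14113, 13885 and 14169 in KO_none and 13213, 14677 and 14307 in KO_Ag. The WT libraries with antigen were all above those without, by little, and the knockout groups overlapped. The log2 fold change was 0.11 ± 0.04 (adjusted p = 0.0117) in the WT co-cultures, a call that was lost without WT_Ag replicate 2 (adjusted p = 0.0585), and 0.00 ± 0.04 (adjusted p = 0.984) in the knockout co-cultures. With a length trend removed by least squares the WT call was lost (0.01, adjusted p = 0.802) and mt-Co1 was called lower in the knockout co-cultures (-0.14, adjusted p = 0.00419). mt-Co2 (-0.74 and -0.33 in WT and knockout), mt-Co3 (-0.63 and -0.44) and mt-Atp6 (-0.84 and 1.40) were not called. The last value rested on KO_Ag replicate 2, where mt-Atp6 was at 5.47 CPM: without that library it was -1.42 (adjusted p = 0.00855), and without KO_Ag replicate 1 or 3 it was called higher (1.98 and 1.94, adjusted p = 0.0186 and 0.0213).

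**Figure D1:**
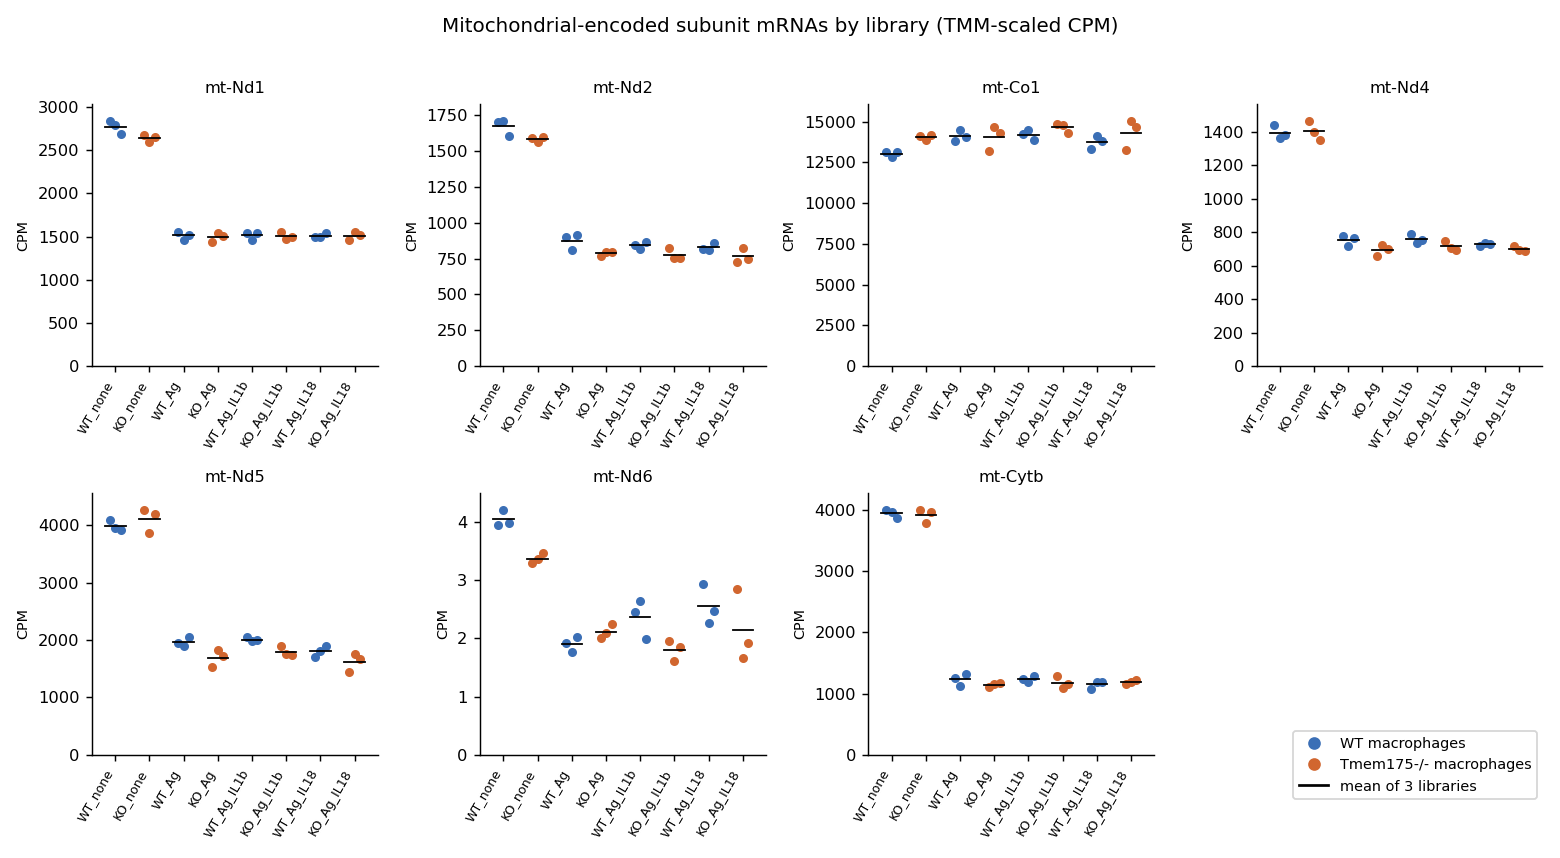
Level in TMM-scaled CPM (vertical axes, each starting at 0) of the 7 mitochondrial-encoded members with the most counts in each of the 24 libraries, by group (horizontal axes). Points are libraries, blue for WT and orange for Tmem175-/- macrophages, and bars are means of 3 libraries; mt-Nd1, mt-Nd2, mt-Nd4, mt-Nd5, mt-Nd6 and mt-Cytb are lower in all 18 libraries with antigen than in the 6 without, and mt-Co1 is not.

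As a share of all counts, before any scaling between libraries, the 10 mitochondrial members fell from 2.72% to 2.85% in WT_none to 2.02% to 2.06% in WT_Ag, and from 2.67% to 2.77% in KO_none to 1.88% to 2.06% in KO_Ag. mt-Co1 alone went from a mean of 1.35% ± 0.0375 (SD, n = 3) to 1.41% ± 0.0288 in the WT co-cultures. The other 9 went from 1.43% ± 0.0359 to 0.631% ± 0.0309 in the WT and from 1.34% ± 0.0384 to 0.581% ± 0.0252 in the knockout co-cultures. mt-Co1 thus held 68.2% to 71.9% of the mitochondrial members' counts in each library with antigen and at most 51.2% without. mt-Co2, mt-Co3 and mt-Atp6, which have nuclear copies, had only 325, 271 and 300 counts over all libraries, against 7103354 for mt-Co1. These shares, and the mitochondrial counts per nuclear count below, therefore rest on the other members and are not the make-up of all mitochondrial messages. The nuclear members' share was 0.597% ± 0.00265 in WT_none and 0.638% ± 0.00331 in WT_Ag, and 0.572% ± 0.00521 in KO_none and 0.652% ± 0.00683 in KO_Ag. The number of mitochondrial counts per nuclear member count was 4.66 ± 0.0918 in WT_none and 3.19 ± 0.0208 in WT_Ag, and 4.77 ± 0.0834 in KO_none and 3.05 ± 0.118 in KO_Ag. The mitochondrial ribosomal RNAs, cut from the same heavy-strand precursors as most of the messages, went opposite ways: mt-Rnr1 rose with antigen, by 0.24 in the WT (adjusted p = 0.00219) and 0.16 in the knockout co-cultures (adjusted p = 0.0376), and mt-Rnr2 fell, by 0.24 (adjusted p = 0.00536) and 0.52 (adjusted p = 1.28e-06). Summed, they went from 0.154% ± 0.0105 to 0.143% ± 0.00752 of counts in the WT and from 0.133% ± 0.00620 to 0.113% ± 0.00682 in the knockout co-cultures. The antigen groups also differed in cell type markers. Of all genes tested 33.5% were called higher and 34.5% lower in the WT and 33.8% and 34.6% in the knockout co-cultures. All 6 neutrophil markers were called lower with antigen in both genotypes. Their summed level was 1162 to 1300.2 CPM in WT_none, 346 to 419.6 in WT_Ag, 1219.7 to 1311 in KO_none and 375 to 432 in KO_Ag, with no marker at 0. Of 8 macrophage markers 4 were higher and 3 lower in both genotypes, and their summed level was 17861 to 18335 in WT_none, 23216 to 24286 in WT_Ag, 12543 to 12919.9 in KO_none and 14495 to 16842 in KO_Ag. Fibroblast markers were higher for 5 of 6 in the WT co-cultures, with a summed level of 28.1 to 87.6 in WT_none and 129 to 189 in WT_Ag, and for 3 of 6 in the knockout co-cultures, at 16.6 to 29.3 in KO_none and 55.1 to 64.1 in KO_Ag. Of 8 T cell markers 1 was higher in the WT and 5 were higher in the knockout co-cultures, at a summed 11 to 19 CPM in these 4 groups, and of 6 B cell markers 3 and 4 were higher and 0 and 1 lower. Of 5 NK cell markers 0 were higher and 3 lower in the WT and 2 higher and 1 lower in the knockout co-cultures, and of 6 plasma cell markers 1 was higher and 1 lower in the WT and 2 higher and 3 lower in the knockout co-cultures. The part of these cell types in the subunit differences was not tested.

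**Figure D2:**
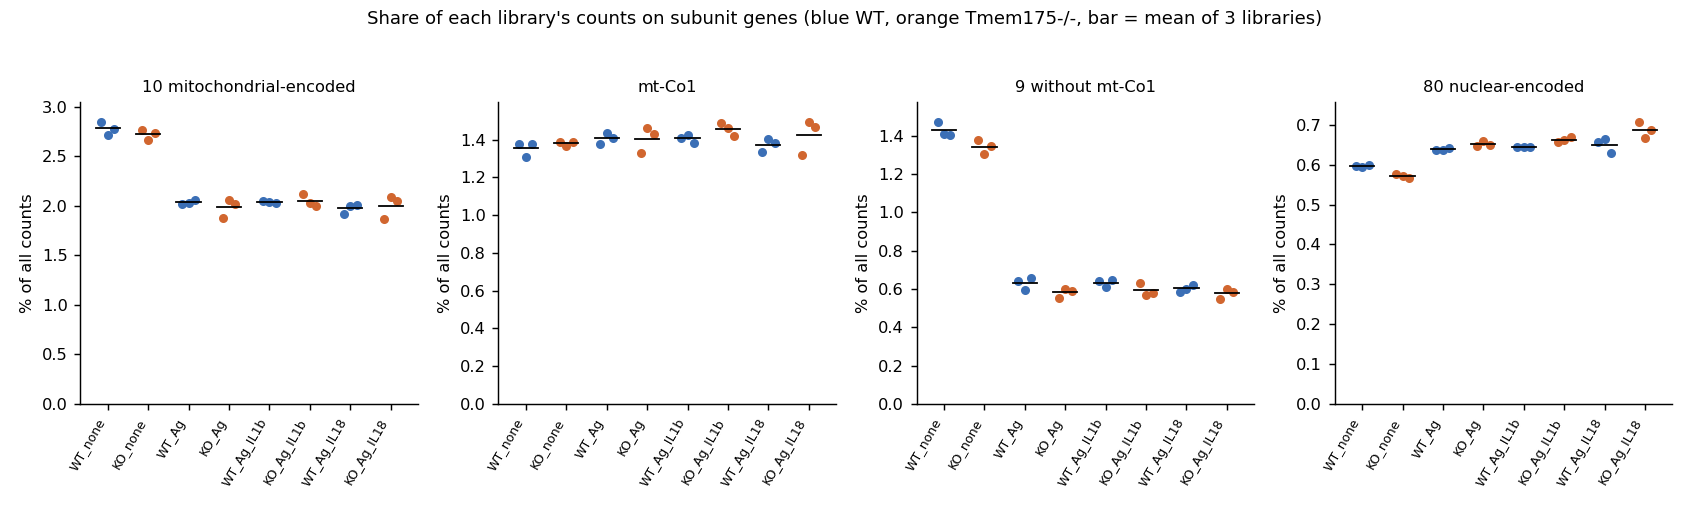
Percent of each library's counts (vertical axes, starting at 0) on the 10 mitochondrial-encoded members, on mt-Co1, on the 9 others and on the 80 nuclear-encoded members, by group (horizontal axes). Points are libraries and bars are means of 3 libraries; with antigen the 9 mitochondrial members other than mt-Co1 are at most 0.655% in every library against at least 1.30% without, while mt-Co1 is between 1.31% and 1.49% in all libraries.

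Among the nuclear members of complex I 19 of 36 were higher and 6 lower with antigen in the WT co-cultures (median 0.17) and 20 were higher and 5 lower in the knockout co-cultures. Of the 29 accessory subunits, which surround the catalytic core, 18 were higher and 2 lower in the WT and 19 higher and 1 lower in the knockout co-cultures, a grouping chosen after the values were seen. Of the nuclear core subunits, which carry the flavin and the iron-sulfur clusters, Ndufs3 was higher (0.31 in the WT and 0.30 in the knockout co-cultures). Ndufs1, Ndufs8 and Ndufv1 were lower in both, and Ndufs7 and Ndufv2 were not called in either. Ndufs1, the largest of them, was at 78.8, 77.2 and 76.6 CPM in WT_none and 62.7, 60.5 and 57.8 in WT_Ag. Knockout levels were 82.4, 80.5 and 81.6 in KO_none and 62.5, 60.8 and 61.3 in KO_Ag. The groups were apart in both genotypes, with log2 fold changes of -0.36 ± 0.04 (adjusted p = 1.09e-08) and -0.41 ± 0.04 (adjusted p = 1.02e-09). Ndufs8 fell by less (-0.25 and -0.18), and so did the accessory subunit Ndufb7 (-0.23 and -0.17). Among the accessory subunits Ndufa12 had the largest rise in the knockout co-cultures, from 21.2, 25.1 and 24 CPM in KO_none to 44.8, 40.3 and 37.3 in KO_Ag, against 25.2, 25.8 and 26.1 in WT_none and 39, 35.6 and 36.2 in WT_Ag. Its log2 fold changes were 0.52 ± 0.08 in the WT and 0.80 ± 0.08 in the knockout co-cultures, and their difference was not called (adjusted p = 0.111). Other accessory subunits that rose were Ndufc2 (0.47 and 0.53), Ndufb1-ps (0.50 and 0.61), Ndufa11 (0.42 and 0.43) and Ndufs6 (0.27 and 0.37).

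Complex II, succinate dehydrogenase, was split evenly in both genotypes. Sdhb, its iron-sulfur subunit (0.36 and 0.35 in WT and knockout), and Sdhd, a membrane anchor (0.41 and 0.46), were higher, and Sdha, the flavoprotein that oxidizes succinate (-0.29 and -0.31), and Sdhc, the other anchor (-0.14 and -0.09), were lower. Sdha was at 233, 242 and 229 CPM in WT_none and 196, 193 and 186 in WT_Ag, and at 244, 234 and 247 in KO_none and 194, 199.9 and 191 in KO_Ag, with all antigen libraries below all others of their genotype. In complex III 4 of 8 nuclear members were higher and 2 lower in the WT and 3 higher and 2 lower in the knockout co-cultures. Uqcrq, the small subunit that sits against cytochrome b, rose from 29.6, 30.6 and 30.4 CPM in WT_none to 66.7, 65.5 and 65.2 in WT_Ag. The values were 31.3, 28.1 and 27.8 in KO_none and 65.8, 63.9 and 64.7 in KO_Ag. Every antigen library was at 2.04 to 2.36 times the level of any library without antigen of its genotype, with log2 fold changes of 1.12 ± 0.05 (adjusted p = 3.96e-18) and 1.16 ± 0.05 (adjusted p = 1.87e-18). In the same complex, then, mt-Cytb from the mitochondrial genome fell and Uqcrq from the nucleus rose. Uqcrb (0.38 and 0.39) and Uqcr10 (0.32 and 0.41) were also higher, the core protein Uqcrc1 (-0.32 and -0.28) and Uqcr11 (-0.14 and -0.13) were lower, and Uqcrc2 and the Rieske iron-sulfur protein Uqcrfs1 were not called in either genotype.

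Complex IV had the highest median of the 5 complexes in the WT co-cultures, 0.42. There 12 of 15 nuclear members were higher and 1 lower, and in the knockout co-cultures 13 were higher and 1 lower. Cox5a rose from 74.9, 75.3 and 73.1 CPM in WT_none to 128, 136 and 137 in WT_Ag. In the knockout it was at 76.3, 70.2 and 72.7 in KO_none and 138, 148 and 134 in KO_Ag. The groups did not overlap, with log2 fold changes of 0.84 ± 0.05 (adjusted p = 4.23e-15) and 0.94 ± 0.05 (adjusted p = 3.35e-16). Cox8a (0.64 and 0.65), Cox6a1 (0.58 and 0.57) and Cox7a2 (0.56 and 0.59) followed, while Cox4i1, the most abundant nuclear member per length, rose by 0.22 and 0.15. Ndufa4, long listed under complex I and now placed with complex IV, was the one that fell (-0.23 and -0.15).

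The isoforms of complex IV were counted apart. Cox6a2, the form of subunit 6A known from heart and skeletal muscle, was at 0.493, 0.627 and 0.590 CPM in WT_none and 9.54, 9.47 and 9.47 in WT_Ag. Knockout levels were 0.344, 0.586 and 0.449 in KO_none and 8.50, 9.04 and 8.87 in KO_Ag. Its highest level without antigen was 0.627 CPM and its lowest with antigen, over 18 libraries, 7.83 CPM, with log2 fold changes of 4.04 ± 0.14 (adjusted p = 4.41e-20) and 4.25 ± 0.15 (adjusted p = 3.94e-20). The common form Cox6a1 was at 44.6, 42.9 and 45.2 CPM in WT_none and 70.1, 60.6 and 68.5 in WT_Ag, again without overlap. Cox6b2, the testis form of subunit 6B, was called in the knockout co-cultures (0.84 ± 0.35, adjusted p = 0.0332) and not in the WT co-cultures (0.37 ± 0.32, adjusted p = 0.317). Its level there was 0.295, 0.586 and 0.224 CPM in KO_none and 0.468, 0.845 and 0.662 in KO_Ag, and the call was lost without any 1 of KO_none replicate 1, KO_none replicate 3, KO_Ag replicate 2 and KO_Ag replicate 3. Cox7a1, the muscle form of subunit 7A, was not called in either (0.12 and -0.02), while its counterparts Cox7a2 and Cox7a2l, the second of which acts in joining complexes III and IV, were higher in both (0.44 and 0.25 for Cox7a2l).

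**Figure D3:**
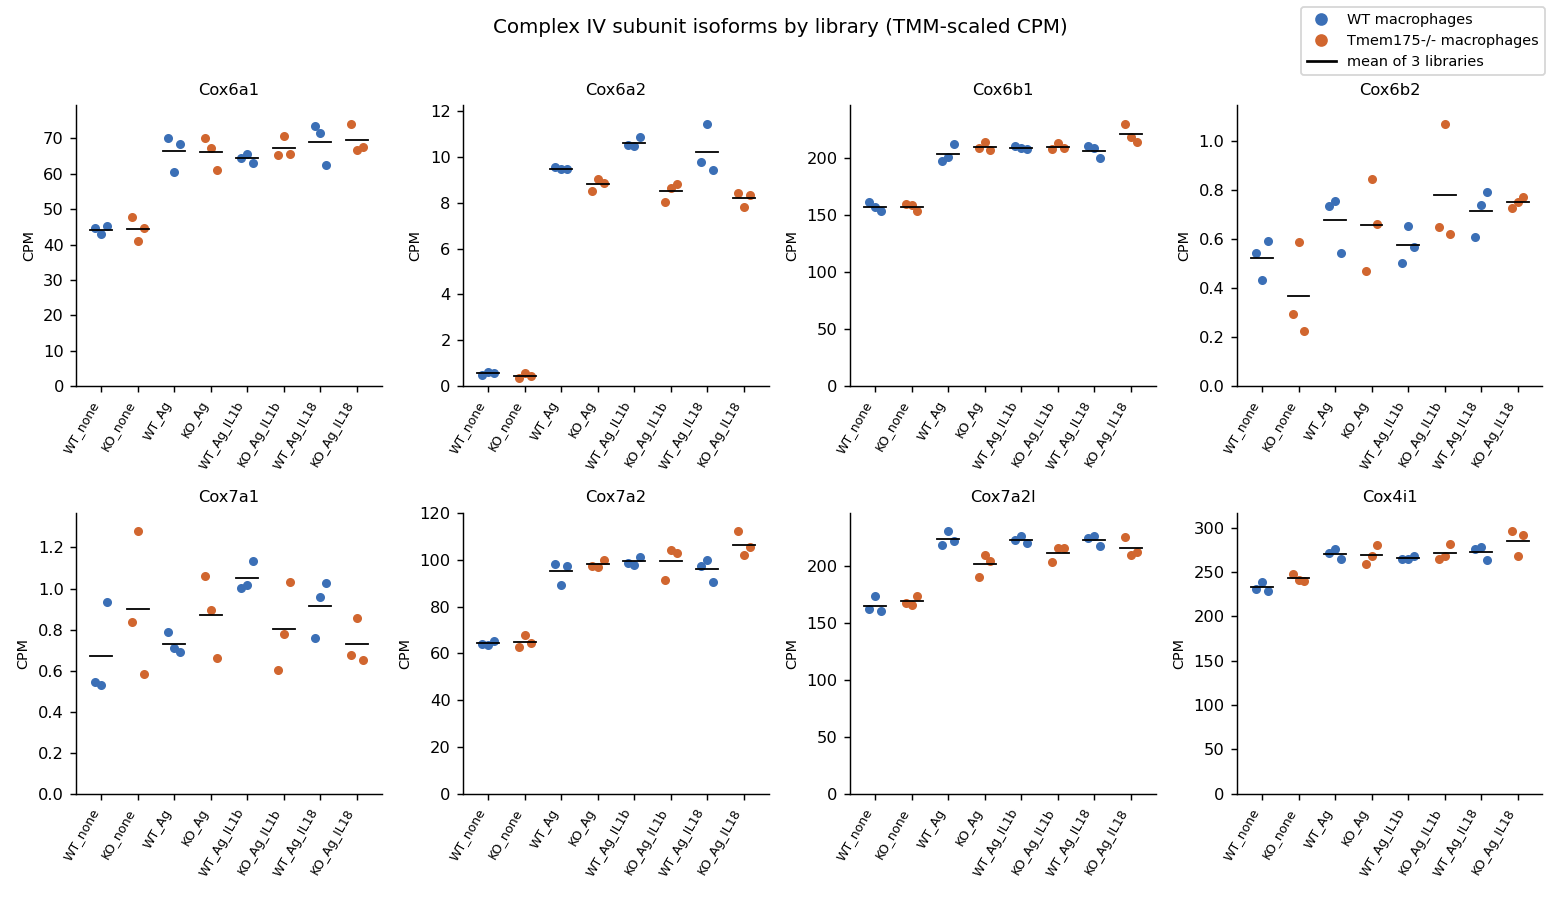
Level in TMM-scaled CPM (vertical axes, each starting at 0) of 8 complex IV members that include paralogous isoforms, in each of the 24 libraries by group (horizontal axes). Points are libraries, blue for WT and orange for Tmem175-/- macrophages, and bars are means of 3 libraries; Cox6a2 is at most 0.627 CPM in the 6 libraries without antigen and at least 7.83 CPM in the 18 with antigen.

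In complex V 10 of 17 nuclear members were higher and 3 lower in the WT (median 0.17) and 14 higher and 2 lower in the knockout co-cultures. The highest were Atp5e (0.46 and 0.49) in the central stalk, Atp5mpl (0.36 and 0.46), a small membrane subunit, and Atp5o (0.23 and 0.44) in the peripheral stalk. Of the catalytic head, the alpha subunit Atp5a1 fell (-0.37 and -0.34) and the beta subunit Atp5b rose by 0.13 in the knockout co-cultures and was not called in the WT co-cultures (0.07). Atp5a1 was at 456, 468 and 461 CPM in WT_none and 365, 351 and 359 in WT_Ag, and at 469, 452 and 462 in KO_none and 351, 369.9 and 369.9 in KO_Ag, with no overlap. The 3 genes for the identical mature c subunit of the proton rotor differed among themselves. Atp5g2 rose in both genotypes (0.36 and 0.25), and Atp5g1 (-0.02 and 0.14) and Atp5g3 (-0.02 and 0.08) were called higher in the knockout co-cultures and not called in the WT co-cultures. The difference between the genotypes was not called for either gene (adjusted p = 0.235 and 0.284). Atp5s (-0.57 and -0.40), first described as a coupling factor of the synthase, was lower in both. Atpif1, the inhibitor that binds the ATP synthase when the gradient collapses and that is no member, fell from 93.3, 98.7 and 96.2 CPM in WT_none to 54.4, 59.4 and 58.4 in WT_Ag. The values were 101, 98.2 and 95.2 in KO_none and 55.9, 62 and 55.8 in KO_Ag. Its groups were apart, with log2 fold changes of -0.74 ± 0.04 (adjusted p = 1.2e-14) and -0.76 ± 0.04 (adjusted p = 5.27e-15).

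**Figure D4:**
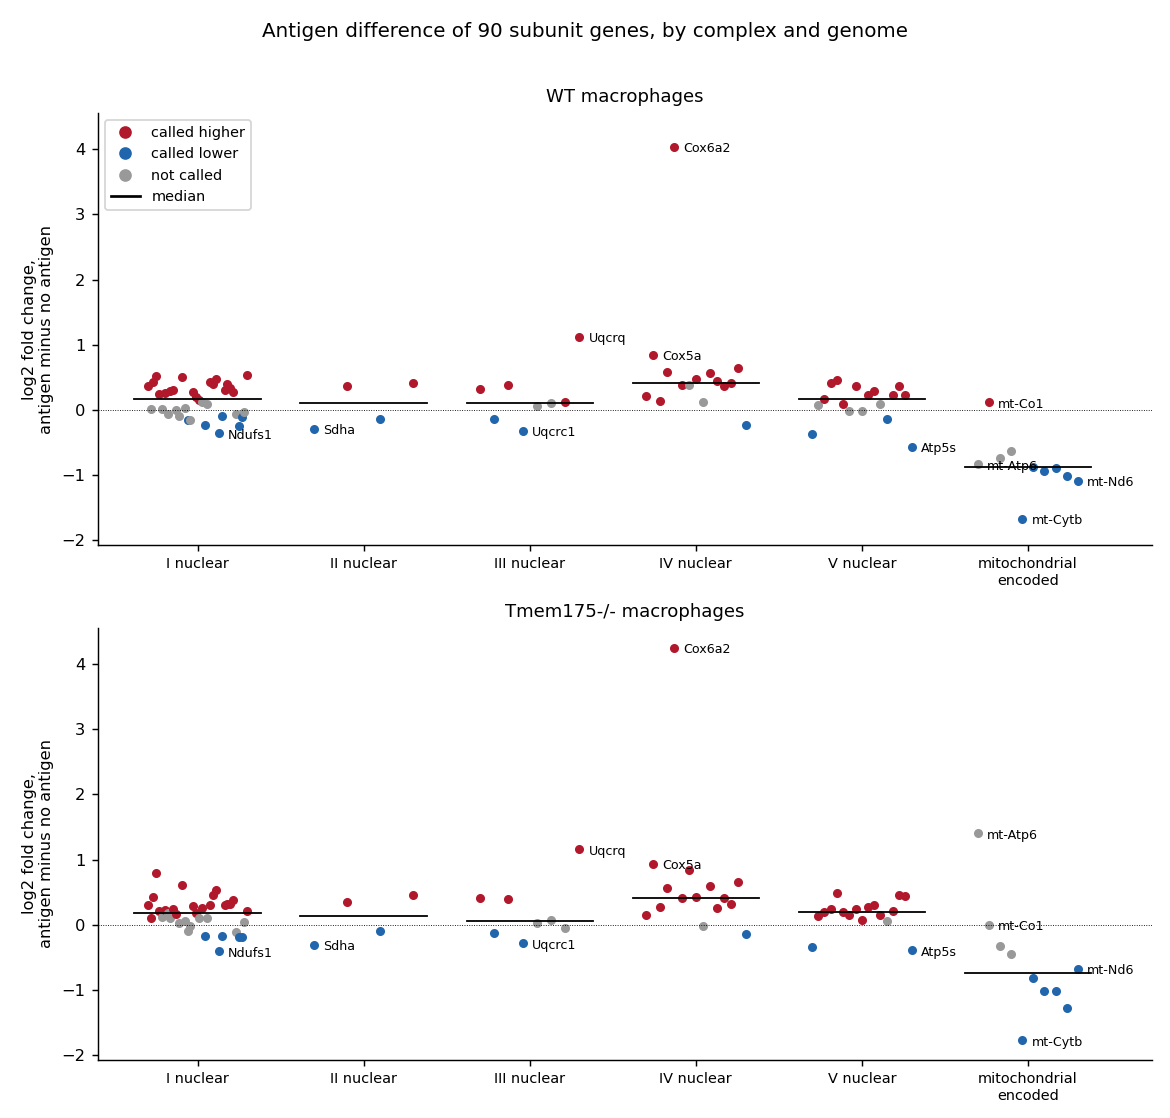
Log2 fold change with antigen (vertical axes) of the 90 members in the WT (top) and Tmem175-/- (bottom) co-cultures, by complex for the nuclear members and with the 10 mitochondrial-encoded members last. Points are genes, red called higher, blue called lower and grey not called, and bars are medians; most nuclear points of complex IV lie above 0 with Cox6a2 at 4.04 and 4.25, and 6 mitochondrial-encoded points are called lower in each genotype.

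Transcript length was set beside the direction of the nuclear members, with no test between the classes. In the WT co-cultures the median length of the longest transcript was 918 bases over the 47 higher, 1753 over the 14 lower and 1363 over the 19 not called, and in the knockout co-cultures it was 891.5, 2159 and 1062. Across the 80 nuclear genes, which share libraries and are not independent, Spearman's rho between length and log2 fold change was -0.35 in the WT and -0.41 in the knockout co-cultures, against -0.05 and -0.08 over 14078 genes tested with a known length. With each library's trend with length over all genes removed by least squares, 34 nuclear members were higher and 22 lower in the WT and 27 higher and 20 lower in the knockout co-cultures, where 31.6% and 30.7% of all genes were higher and 36.7% and 37.8% lower. A robust regression, added after those calls had been seen, left 46 higher and 16 lower in the WT and 47 higher and 13 lower in the knockout co-cultures. The counts of nuclear members thus depended on how the trend was drawn. Under least squares Cox4i1 also turned in the knockout co-cultures, to -0.076 (adjusted p = 0.0763), while mt-Cytb (-1.81 and -1.94 in WT and knockout), Uqcrq (1.02 and 1.01) and Cox6a2 (3.86 and 4.02) stayed called.

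Binding motifs of factors known for subunit genes were looked for in the 250 bases before the start of each gene, from RefSeq (GRCm38.p6), where 67 of the 80 nuclear members were matched. The palindromic motif of NRF1, the nuclear respiratory factor, searched as GCGCA followed directly by its reverse complement TGCGC, was in 4 of them (5.97%) and in 0.877% of 27025 genes. The ETS motif CCGGAAG, searched on both strands as CCGGAAG or CTTCCGG, was in 12 (17.9%) and in 7.83% of all genes, and CCAAT or ATTGG was in 29 (43.3%) and in 37.5%. The 4 promoters with the NRF1 motif are shown with that motif in capitals, and in Cox6a1 with an ETS motif in capitals as well, because they belong to members called with antigen in both directions. In the WT co-cultures 3 of the genes were higher, Ndufa11 (0.42), Cox6a1 (0.58) and Atp5g2 (0.36), and 1 was lower, Atp5k (-0.15, adjusted p = 0.0242). They lie at chr17:56717512-56717761 (Ndufa11, plus strand), chr5:115348959-115349208 (Cox6a1, minus strand), chr15:102671048-102671297 (Atp5g2, minus strand) and chr5:108434400-108434649 (Atp5k, minus strand):
Ndufa11: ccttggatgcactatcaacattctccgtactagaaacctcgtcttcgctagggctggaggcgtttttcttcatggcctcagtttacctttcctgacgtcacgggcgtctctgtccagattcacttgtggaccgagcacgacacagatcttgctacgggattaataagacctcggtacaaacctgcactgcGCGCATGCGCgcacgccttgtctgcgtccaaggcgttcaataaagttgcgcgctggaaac
Cox6a1: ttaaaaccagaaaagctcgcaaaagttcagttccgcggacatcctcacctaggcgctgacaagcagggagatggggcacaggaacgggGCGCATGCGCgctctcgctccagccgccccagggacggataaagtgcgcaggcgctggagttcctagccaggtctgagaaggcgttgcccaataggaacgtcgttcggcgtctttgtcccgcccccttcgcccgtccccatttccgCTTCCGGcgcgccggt
Atp5g2: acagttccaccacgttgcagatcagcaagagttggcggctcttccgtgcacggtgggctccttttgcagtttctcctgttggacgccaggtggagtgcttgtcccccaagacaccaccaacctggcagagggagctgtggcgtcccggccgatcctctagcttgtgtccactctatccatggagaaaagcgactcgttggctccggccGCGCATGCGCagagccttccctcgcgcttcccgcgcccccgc
Atp5k: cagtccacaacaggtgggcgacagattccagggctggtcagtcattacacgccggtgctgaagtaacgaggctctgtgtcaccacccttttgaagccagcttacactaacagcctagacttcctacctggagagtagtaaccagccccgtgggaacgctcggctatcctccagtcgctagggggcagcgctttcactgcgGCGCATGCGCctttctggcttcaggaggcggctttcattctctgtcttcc
Of the matched members called higher in the WT co-cultures 3 of 40 held the NRF1 motif, of those called lower 1 of 10 and of those not called 0 of 17, and the ETS motif was in 9, 2 and 1 of them. These letters describe the sequence only.

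The genes that build and serve the complexes were mixed with antigen in the WT co-cultures, where 33.5% of all genes tested were called higher and 34.5% lower. Of the assembly factors 2 of 18 tested for complex I were higher and 5 lower, 2 and 1 of 4 for complex II, 3 and 2 of 6 for complex III, 7 and 6 of 24 for complex IV, and 1 and 0 of 4 for complex V. Uqcc2, needed for cytochrome b synthesis, rose (1.02 and 1.15 in WT and knockout), as did Higd1a, a factor of complex IV (1.10 and 1.27), and Tmem126b, a factor of complex I, fell (-0.65 and -0.76). Of the genes for cytochrome c and coenzyme Q 6 of 15 were higher and 4 lower, with Cycs, cytochrome c, at 0.70 and 0.87. Of 3 subunit genes added because the symbol rule did not reach them or left their place open, Ndufab1 and Cyc1, cytochrome c1 of complex III, were higher and Atp5s lower.

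The list counts that follow are also for antigen in the WT co-cultures, where 33.5% of all genes tested were higher and 34.5% lower. Of the genes that copy and transcribe mitochondrial DNA 6 of 18 were higher and 5 lower. For those that process and stabilize its RNA it was 6 of 20 higher and 5 lower. Tfb2m, a transcription initiation factor of mitochondria, fell (-0.64 and -0.78), and so did its relative Tfb1m, which methylates ribosomal RNA (-0.52 and -0.59). Lrpprc, which holds the mitochondrial messages in a stable complex with Slirp, fell (-0.48 and -0.45), whereas Slirp rose (0.62 and 0.68). Of the mitochondrial ribosome 16 of 48 large subunit proteins were higher and 11 lower, and 7 of 29 small subunit proteins were higher and 8 lower, with Mrpl45 at 1.36 and 1.31 and Ptcd3 at -0.65 and -0.50. Among regulators of mitochondrial biogenesis 5 of 11 were higher and 4 lower, and the lowest were Pparg (-2.57 and -2.98), Tfeb (-1.40 and -1.76) and Myc (-1.30 and -1.20). Of the tricarboxylic acid cycle, which feeds complexes I and II, 4 of 14 were higher and 6 lower, and of carriers and outer membrane proteins 5 of 14 were higher and 5 lower, with the aspartate-glutamate carrier Slc25a13 at -2.06 and -2.16. Of proteases and enzymes against reactive oxygen 8 of 14 were higher and 3 lower. They held the largest rise of all the lists, Sod2, the superoxide dismutase of the matrix, at 68.9, 76.4 and 73.9 CPM in WT_none and 783, 752 and 762 in WT_Ag (3.39 and 3.67), and Prdx5 (2.19 and 2.10). The median log2 fold change of the 15 lists lay between -0.08 and 0.34 in the WT co-cultures.

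The antigen response itself was compared between the genotypes with an interaction contrast, for which 8.39% of all genes were called (3.79% higher, 4.6% lower in the knockout). Among the 80 nuclear members 0 had a higher response in the knockout and 2 a lower one, and among the 10 mitochondrial members 0 were called. At an unadjusted p under 0.05 there were 4 nuclear members higher and 5 lower, and 0 mitochondrial members higher and 2 lower, or 11.2% and 20% of them, against 21.2% of all genes. Ndufv3, an accessory subunit on the flavoprotein of complex I, was at 35.2, 37.6 and 37 CPM in WT_none and 53.6, 52.7 and 52 in WT_Ag, against 37.4, 42.2 and 36.5 in KO_none and 44.5, 42.7 and 46.6 in KO_Ag. It rose in both genotypes, less in the knockout, and the difference of the log2 fold changes was -0.32 ± 0.08 (adjusted p = 0.0102), with values of -0.37 to -0.25 and adjusted p up to 0.0374 in every alternative run. Cox7a2l was at 162, 173 and 160.2 CPM in WT_none and 218, 230.3 and 222 in WT_Ag, against 168, 166 and 174 in KO_none and 190.4, 209.7 and 205 in KO_Ag, a difference of -0.18 ± 0.06 (adjusted p = 0.0394). That call was lost when any 1 of WT_none replicates 1 and 3, KO_none replicate 3, WT_Ag replicates 2 and 3 or KO_Ag replicates 1 and 3 was left out, with adjusted p up to 0.207 over all alternatives. For mt-Nd5 the difference was -0.26 ± 0.09, short of the threshold (adjusted p = 0.0891), and DESeq2 called it (adjusted p = 0.0337). In the lists of other mitochondrial genes 8 of the 247 matched genes were called, where 8.39% of all genes tested were. Among the 8 were Sod2 with a larger rise in the knockout (0.28 ± 0.06, adjusted p = 0.00152) and Pparg with a larger fall (-0.41 ± 0.09, adjusted p = 0.004).

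The genotypes also differed in cell type markers in each condition, and the part of those cells in the genotype differences of the subunits was not tested. The counts are given in the order without antigen, with antigen, with IL-1β and with IL-18. Of all genes tested 9.62%, 7.7%, 7.22% and 9.89% were called higher in that order, and 7.25%, 7.62%, 6.55% and 10.3% lower. Of 6 plasma cell markers 5, 4, 5 and 5 were called higher in the knockout and 0, 1, 1 and 1 lower. Of 6 neutrophil markers 0, 2, 4 and 4 were higher, and of 6 fibroblast markers 2, 4, 4 and 4 were lower, with 0 the other way in both lists. Of 6 B cell markers 1, 1, 2 and 3 were higher and 3, 2, 1 and 0 lower. Of 5 NK cell markers 0, 1, 1 and 2 were higher and 2, 0, 0 and 0 lower. Of 8 macrophage markers 2, 2, 2 and 3 were higher and 2, 1, 1 and 1 lower. Of 8 T cell markers 0, 0, 1 and 0 were higher and 0 lower. With IL-18 the summed plasma cell markers were at 306 to 313 CPM in WT_Ag_IL18 and 441 to 532 in KO_Ag_IL18, the neutrophil markers at 314 to 344 and 469 to 583, and the fibroblast markers at 148 to 160.3 and 39.6 to 73.1. The 8 macrophage markers summed to 21612 to 23945 CPM in WT_Ag_IL18 and 16157 to 17246 in KO_Ag_IL18, most of it Lyz2, the lysozyme of myeloid cells, at means of 14056 and 7679. Of these 8 markers 3 were called higher and 1 lower with IL-18, as given above. Lyz2 was at means of 11291 CPM in WT_none and 6083 in KO_none, and of 14802 in WT_Ag and 6851 in KO_Ag.

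Without antigen the genotypes differed in 2 of 80 nuclear members, both higher in the knockout (16.9% of all genes were called, 9.62% higher and 7.25% lower). Of the 10 mitochondrial members 0 were called, with 1 higher at an unadjusted p under 0.05, where 27.8% of all genes lay, and 0 called by DESeq2. Ndufa6 was at 42, 39.3 and 40.9 CPM in WT_none and 44.4, 45.5 and 47.1 in KO_none (0.17 ± 0.05, adjusted p = 0.0286). Atp5g2 was at 79.1, 79.8 and 75.9 CPM in WT_none and 82.8, 84.5 and 87.6 in KO_none (0.12 ± 0.04, adjusted p = 0.0444). For both genes the groups were apart by little. The count of 2 became 1 without WT_none replicate 1 and 0 without WT_none replicate 2 or 3 or KO_none replicate 2 or 3. The median log2 fold change of the nuclear members was 0.01, and that of all genes tested also 0.01. With the length trend removed by least squares 2 nuclear members were higher and 36 lower, Atp5g2 among them (-0.28, adjusted p = 2.2e-05), where 16.3% of all genes were higher and 9.11% lower, and with the robust trend 1 was higher and 2 lower.

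With antigen 2 nuclear members were higher and 2 lower in the knockout and 3 mitochondrial members were lower, where 15.3% of all genes were called (7.7% higher, 7.62% lower). Atp5g1 (0.18 ± 0.06, adjusted p = 0.0231) and Ndufa8 (0.20 ± 0.06, adjusted p = 0.0264) were higher. Ndufv3 (-0.24 ± 0.05, adjusted p = 0.00231) and Cox7a2l (-0.15 ± 0.04, adjusted p = 0.00937) were lower, with the levels given above and no overlap between genotypes. The 3 mitochondrial members were all of complex I. mt-Nd5 differed by -0.21 ± 0.06 (adjusted p = 0.0283), and mt-Nd2 was at 903, 811 and 911 CPM in WT_Ag and 765, 794 and 799 in KO_Ag (-0.16 ± 0.05, adjusted p = 0.0193). mt-Nd4 was at 778, 716 and 765 CPM in WT_Ag and 655, 722 and 697 in KO_Ag (-0.12 ± 0.04, adjusted p = 0.0389), groups that overlapped. The 2 higher nuclear members became 0 without KO_Ag replicate 1 and 1 without WT_Ag replicate 2 or 3 or KO_Ag replicate 3, and the 2 lower ones became 1 without WT_Ag replicate 2 or KO_Ag replicate 1. The count of 3 mitochondrial members became 0 without WT_Ag replicate 1, WT_Ag replicate 3 or KO_Ag replicate 1, 1 without KO_Ag replicate 3 and 4 without WT_Ag replicate 2. With the length trend removed by least squares 2 nuclear members were higher, 38 nuclear and 6 mitochondrial members were lower (12.7% of all genes were higher, 10.1% lower) and Ndufa8 was at -0.15 (adjusted p = 0.0533). The robust trend left 1 higher and 4 lower. In the comparison with no trend removed 7 of 48 large and 3 of 29 small mitochondrial ribosome proteins were higher in the knockout and 0 lower.

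With antigen and IL-1β 4 nuclear members were higher and 2 lower in the knockout, where 13.8% of all genes were called (7.22% higher, 6.55% lower). Of the 10 mitochondrial members 0 were called, with 4 lower at an unadjusted p under 0.05, where 25.3% of all genes lay, and 0 called by DESeq2. The higher ones were 3 of the ATP synthase, Atp5g1 (0.19 ± 0.06, adjusted p = 0.0203), Atp5mpl (0.16) and Atp5g3 (0.14), and Uqcrc1 of complex III (0.14). Cox6a2 was at 10.5, 10.5 and 10.9 CPM in WT_Ag_IL1b and 8.04, 8.65 and 8.81 in KO_Ag_IL1b (-0.32 ± 0.08, adjusted p = 0.00852). Ndufv3 was at 56.1, 53.9 and 51.8 CPM in WT_Ag_IL1b and 48, 44.8 and 47.5 in KO_Ag_IL1b (-0.20 ± 0.05, adjusted p = 0.0102). For both genes all knockout libraries were below all WT libraries. The 4 higher members became 2 without WT_Ag_IL1b replicate 1 or 2 or KO_Ag_IL1b replicate 2 or 3 and 7 without KO_Ag_IL1b replicate 1. The call of Ndufv3 was lost without WT_Ag_IL1b replicate 1 or KO_Ag_IL1b replicate 2, and that of Cox6a2 without KO_Ag_IL1b replicate 1. With the length trend removed by least squares 3 nuclear members were higher and 39 lower (10.3% of all genes were higher, 9.35% lower), and Atp5mpl (-0.42, adjusted p = 1.72e-07) and Atp5g3 (-0.21, adjusted p = 2.77e-05) turned to lower, while the robust trend left 2 higher. Cox6a2 and Ndufv3 were lower under both.

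With antigen and IL-18, 21 of 80 nuclear members were higher and 2 lower in the knockout, where 20.2% of all genes were called (9.89% higher, 10.3% lower). Of the 10 mitochondrial members 0 were called, with 2 lower at an unadjusted p under 0.05, where 32.4% of all genes lay, and 0 called by DESeq2. The 21 were 5 of complex I, 1 of complex II, 3 of complex III, 5 of complex IV and 7 of complex V, with log2 fold changes of 0.10 to 0.27. Ndufs6, a zinc-binding accessory subunit of complex I, was at 21.7, 25.6 and 21 CPM in WT_Ag_IL18 and 28.7, 26.4 and 27.6 in KO_Ag_IL18 (0.27 ± 0.06, adjusted p = 0.00114). Ndufv2, a core iron-sulfur subunit, was at 59.97, 60.4 and 57.7 CPM in WT_Ag_IL18 and 71.3, 64.4 and 68.2 in KO_Ag_IL18 (0.20 ± 0.04, adjusted p = 0.0014). Both groups were apart, as they were for 19 of the 21. These had been picked by their calls, so the lack of overlap is no separate support. Over all genes tested, called or not, 17.5% had every knockout library above every WT library, a share of an unlike set. Next were Cox5b (0.18), whose groups overlapped, Ndufa9, Ndufa4 and Ndufs8 (each 0.17) and Uqcrb (0.16). Cox6a2 (-0.32 ± 0.08, adjusted p = 0.00768) and Ndufv3 (-0.17 ± 0.05, adjusted p = 0.0235) were lower. Cox6a2 was at 9.77, 11.5 and 9.42 CPM in WT_Ag_IL18 and 8.41, 7.83 and 8.34 in KO_Ag_IL18, a call lost without WT_Ag_IL18 replicate 2. Ndufv3 was at 57.5, 53.1 and 56.7 CPM in WT_Ag_IL18 and 52.9, 45.6 and 49.8 in KO_Ag_IL18, a call lost without WT_Ag_IL18 replicate 1 or 3 or KO_Ag_IL18 replicate 2 or 3.

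The count of 21 rested on single libraries and on the length trend. The nuclear members took 0.657%, 0.663% and 0.630% of counts in the WT_Ag_IL18 libraries and 0.706%, 0.666% and 0.686% in KO_Ag_IL18, with the lowest value in WT_Ag_IL18 replicate 3 and the highest in KO_Ag_IL18 replicate 1. Without WT_Ag_IL18 replicate 3 only 2 members were called higher and without KO_Ag_IL18 replicate 1 there were 8. The count was 13 with these 6 libraries fitted alone and 7 with the robust length trend removed. With the trend removed by least squares 8 nuclear members were higher and 38 lower (12.7% of all genes were higher, 10.9% lower), with Ndufs6 turned to -0.19 (adjusted p = 0.0141) and Ndufs8 at -0.031 (adjusted p = 0.704). The median log2 fold change of the nuclear members was 0.08 with antigen and IL-18, 0.04 with antigen and IL-1β and 0.02 with antigen, against 0.01 or less for all genes tested.

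**Figure D5:**
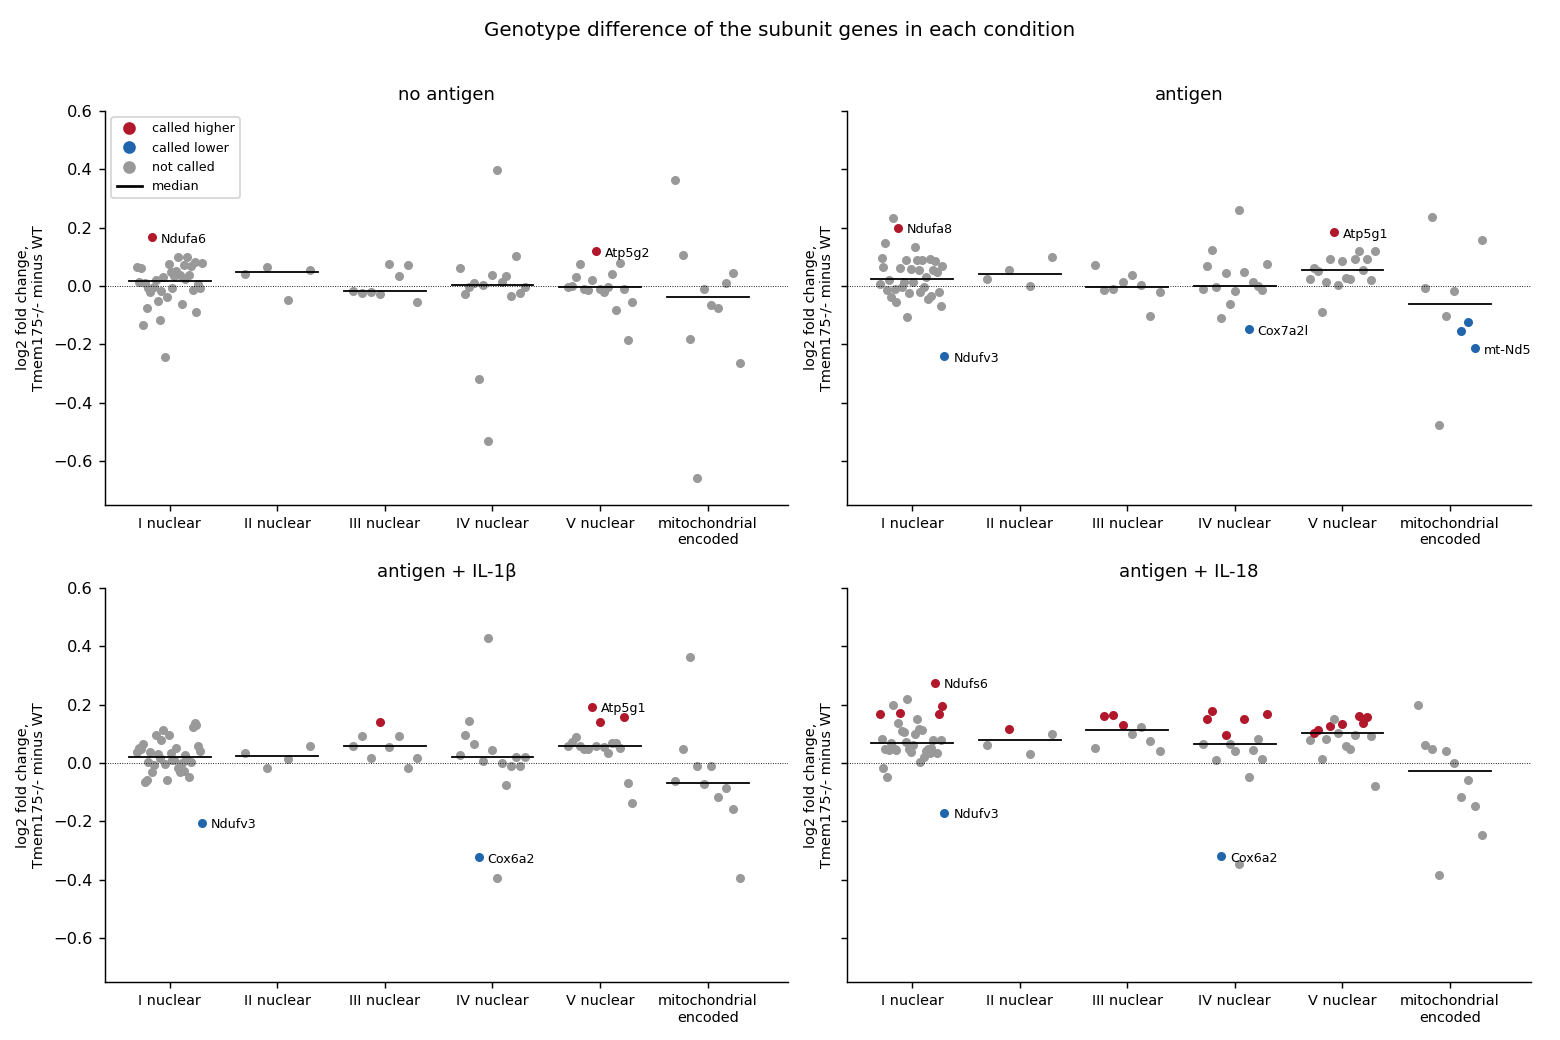
Log2 fold change between Tmem175-/- and WT co-cultures (vertical axes) of the members in each of the 4 conditions, by complex for the nuclear members and with the mitochondrial-encoded members last. Points are genes, red called higher, blue called lower and grey not called, and bars are medians; 1 point, mt-Atp6 with antigen at 2.60, lies outside the axis, and the called members are within 0.33 of 0.

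IL-1β or IL-18 added to antigen called 0 of the 90 members in either genotype. Over all genes 0.0567% were called for IL-1β in the WT co-cultures (0.0284% higher, 0.0284% lower) and 0.0426% in the knockout co-cultures (0.0426% higher, 0% lower). For IL-18 it was 0% in the WT and 0.213% in the knockout co-cultures (0.0496% higher, 0.163% lower). At an unadjusted p under 0.05 the nuclear members higher and lower were 3 and 0 for IL-1β in WT, 9 and 1 for IL-1β in the knockout, 0 and 1 for IL-18 in WT and 30 and 0 for IL-18 in the knockout co-cultures. In the same order 9.36%, 13.3%, 4.11% and 12.4% of all genes lay under that p, with 815 higher and 933 lower in the last. There 75 of 80 nuclear members and 7360 of 14099 genes had a log2 fold change above 0. The smallest adjusted p of a nuclear member was 0.0677, and DESeq2 called 3 higher, while it called 0 members in the other 3 comparisons. In that comparison edgeR called 3 nuclear members higher without KO_Ag replicate 2 and 4 without KO_Ag_IL18 replicate 2, and for IL-1β in the knockout co-cultures 2 without KO_Ag replicate 2. Among the mitochondrial members 0 were higher and 0 lower at that level for IL-1β in WT, 0 and 1 for IL-1β in the knockout, 1 and 0 for IL-18 in WT and 0 and 1 for IL-18 in the knockout co-cultures. Both knockout comparisons take in KO_Ag replicate 2, where mt-Atp6 had 110 counts. The 6 mitochondrial members that fell with antigen were also low in the libraries with either cytokine, for example mt-Cytb at 1240.5, 1186 and 1287 CPM in WT_Ag_IL1b, 1284, 1095 and 1153 in KO_Ag_IL1b, 1079, 1191 and 1188 in WT_Ag_IL18 and 1152, 1191 and 1215 in KO_Ag_IL18. Whether the response to a cytokine differed between the genotypes was not tested, and the cytokine comparisons of a genotype share its antigen libraries.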

How the data were processed

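Poly(A) RNA was sequenced by the authors from 24 co-cultures in 8 groups of 3, taken from the sample titles. The deposited table holds raw counts per Ensembl mouse gene, 1 column per library. Per the submitters' processing notes, fastp (version not stated) and the build GRCm39 were used; the aligner, the counter, strand and the treatment of reads with several places are not given in the sources used here. Symbols and longest transcripts came from GENCODE vM21 (GRCm38), so coordinates are those of that build and not of the authors' build, and symbols are older ones. Of 55487 identifiers 346 had no symbol (0.0228% of counts).

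Genes were kept with filterByExpr (14099 genes, 99.9% of counts), scaled with TMM factors and fitted in edgeR 4.0.16 (R 4.3.3), robust quasi-likelihood, with 1 coefficient per group over all 24 libraries and 16 residual degrees of freedom. The threshold was an adjusted p (Benjamini-Hochberg) under 0.05. Libraries held 17744540 to 24898552 counts, and the common coefficient of variation between replicates was 5.01%. In simulated counts of 13511 genes for the comparison of KO_Ag with WT_Ag, true folds of 1.2, 1.5, 2 and 4 were recovered for 48%, 76%, 92% and 100% of the changed genes, and 3.07% of the calls were false. The changed genes were 50 per fold and all above a minimum count, and no other group differed, unlike in these data. The 11 comparisons were knockout against WT in 4 conditions, antigen in 2 genotypes, the difference of those responses, and each cytokine on antigen in 2 genotypes.

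The members and the 15 gene lists (247 of 252 genes matched) were chosen with earlier results of these data known. Members named are all mitochondrial-encoded ones, isoform paralogs, and up to 6 called nuclear members per direction and comparison without overlap between groups, with up to 3 called genes per list and direction, Atpif1 and Tmem175. Core subunits of complex I, Sdhc, Sdhd, Uqcrb, Uqcr10, Uqcr11 and the other members given with a fold change alone fill in their complexes and were chosen after their values were seen. The lists were described by counts only. Alternatives were median-of-ratios factors, scaling without mitochondrial genes, DESeq2 1.42.0, no filter, a replicate block, the compared groups alone, each library left out, and a length trend removed by least-squares loess with and without the block. Added after the data were seen were the same with robust loess, run once the least-squares calls were known, and the mitochondrial members under 400 counts left out. Sequences were read from the GENCODE transcripts and the RefSeq promoter table; proteins were not used here.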

Additional observations from a re-analysis of the deposited data

Results flagged for a closer look

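The antigen response of 2 subunit genes differed between WT and Tmem175-/- co-cultures by the interaction contrast of edgeR's quasi-likelihood test with Benjamini-Hochberg adjustment over all genes. For Ndufv3 the log2 response in the knockout minus that in the WT was -0.32 (adjusted p = 0.0102), with a rise in each of the 2 genotypes. For Cox7a2l it was -0.18 (adjusted p = 0.0394), again with a rise in each. No group has more than 3 libraries, so no group was examined for a single outlying sample.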

How the results depend on the processing

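The counts of nuclear members called with antigen stayed within 1.5 times under the alternatives run, except where the length trend was removed by least squares. With 1 library left out they were 44 to 47 higher and 10 to 14 lower (WT) and 50 to 55 higher and 9 to 12 lower (knockout), and mitochondrial members were 6 to 7 lower and 0 to 1 higher in each. In the knockout co-cultures mt-Atp6 turned from 1.40 to -1.42 without KO_Ag replicate 2, in a range of -1.42 to 1.98 over the libraries left out.

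Genotype counts were small and moved more, and the cause was not tested. With 1 library left out, nuclear members higher and lower were 0 to 3 and 0 to 1 without antigen, 0 to 2 and 1 to 3 with antigen, 2 to 7 and 1 to 2 with IL-1β, 2 to 23 and 1 to 2 with IL-18, and 0 to 1 and 1 to 3 for the difference of responses. Mitochondrial members were 0 to 4 lower and 0 to 1 higher with antigen, 0 to 1 lower with IL-1β, 0 to 2 lower and 0 to 1 higher with IL-18, and 0 to 1 lower for the difference of responses. Nuclear members were 0 to 2 higher for IL-1β and 0 to 4 higher for IL-18 on antigen in the knockout co-cultures.

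Median-of-ratios factors called 1 mitochondrial member higher without antigen. DESeq2 called 1 mitochondrial member higher with antigen, 1 lower for the difference of responses and 3 nuclear members higher for IL-18 in the knockout co-cultures. Without the filter, 1 nuclear and 1 mitochondrial member were higher without antigen, 2 mitochondrial members were lower with IL-1β and 2 with IL-18, 1 nuclear member was higher and 1 mitochondrial member lower for the difference of responses, and 1 nuclear member was higher for IL-18 in the knockout co-cultures. With the compared groups alone, 0 nuclear members were higher without antigen and 13 with IL-18, 2 mitochondrial members were lower with IL-1β, and 1 nuclear member was lower for the difference of responses.

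Replicate numbers are shared between groups. Same-numbered libraries of different groups deviated together little (r from -0.0452 to 0.276, median 0.0729, 84 pairs), but more than those with different numbers. There r was -0.218 to 0.150 with a median of -0.0449 (168 pairs). The main fit used no pairing, and whether the numbers pair the libraries was not tested. With a replicate block 1 mitochondrial member was higher without antigen, 4 nuclear members were higher with antigen and 3 for IL-18 in the knockout co-cultures.

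With each library's trend with transcript length removed by least squares, nuclear members higher and lower with antigen were 34 and 22 (WT) and 27 and 20 (knockout), and 0 mitochondrial members were higher in WT. For genotype, 36 nuclear members were lower without antigen, 38 with antigen, 39 with IL-1β and 38 (8 higher) with IL-18. Mitochondrial members lower were 4, 6, 3 and 3 in the same order, with 1 higher without antigen. The median of all genes moved by less than 0.1 (log2). Log2 fold changes that turned were, without antigen, Atp5g2 -0.28, Cox4i1 -0.33, Cox6a1 -0.52, Cox6b1 -0.53 and Cox7a2 -0.48; with antigen, mt-Nd6 -0.54, Ndufa8 -0.15, Cox6b1 -0.53 and Cox7a2 -0.49; with IL-1β, Atp5g3 -0.21, Atp5mpl -0.42, Cox4i1 -0.41, Cox6a1 -0.51 and Cox6b1 -0.57. With IL-18 they were mt-Nd1 -0.25, Ndufa1 -0.69, Ndufs8 -0.031, Ndufs6 -0.19, Cox4i1 -0.39, Cox6a1 -0.59, Cox6b1 -0.50, Cox7a2 -0.40 and Cox8a -0.66, and for antigen in the knockout co-cultures mt-Co1 -0.14 and Cox4i1 -0.076. The replicate block with the least-squares trend turned the same 25 values, to the same 2 decimals (Ndufs8 -0.029). It put 4 nuclear members higher and 36 lower without antigen, 39 lower with antigen, 39 lower with IL-1β, and 11 higher and 40 lower with IL-18. Mitochondrial members lower were 4, 6, 4 and 3, with 1 higher without antigen. With antigen it put 22 nuclear members lower and 0 mitochondrial members higher (WT) and 28 nuclear members higher and 21 lower (knockout), and for the difference of responses 5 nuclear members and 1 mitochondrial member lower.

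A robust regression was added after those calls had been seen. It put nuclear members higher and lower at 1 and 2 without antigen and 1 and 4 with antigen, 2 higher with IL-1β, and 7 higher and 1 mitochondrial member lower with IL-18. With the replicate block and the robust trend, 1 nuclear member was higher and 4 lower and 1 mitochondrial member lower without antigen, 5 nuclear members were lower with antigen, 1 mitochondrial member was lower with IL-1β, 10 nuclear members were higher and 2 mitochondrial members lower with IL-18, and 5 nuclear members and 1 mitochondrial member were lower for the difference of responses. Which trend describes the libraries better was not tested, so the directions of the small genotype differences named above are uncertain.

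Depth limits mt-Nd6, Cox6b2, Cox7a1, Ndufb2 and the 3 mitochondrial members with nuclear copies, all at a few CPM or less without antigen. At 3 libraries a group about 48% of true 1.2-fold changes were recovered in simulated counts. Only 50 genes per fold were changed there, all above a minimum count, so this share need not hold for these data or for members with few counts.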

Other observations

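The nuclear copy Gm28438 and the mitochondrial gene mt-Nd3, which differ by T3C over 345 bases, divided their counts by genotype. Gm28438 had 31 to 117 counts in each of the 12 WT libraries (693 in all) and 0 to 4 in each of the 12 knockout libraries (21 in all). mt-Nd3 had 0 to 3 counts in the WT libraries (10 in all) and 1 to 13 in the knockout libraries (48 in all). Without antigen Gm28438 had 109 to 117 counts in WT_none and 1 to 3 in KO_none, and with antigen 36 to 47 in WT_Ag and 0 in every KO_Ag library. The total of the pair was thus higher in the WT libraries. Single libraries also stood apart for the other copies: mt-Atp6 had 110 counts in KO_Ag replicate 2, where its copy Gm10925 had 52, and Gm28437, the copy of mt-Co3, had 31 counts in KO_Ag_IL18 replicate 1.

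The mitochondrial ribosomal RNAs, which are no subunits, were lower in the knockout with antigen, with log2 fold changes of -0.28 for mt-Rnr1 (adjusted p = 0.00459 in edgeR's quasi-likelihood test) and -0.39 for mt-Rnr2 (adjusted p = 0.000488). mt-Rnr1 was also called lower without antigen (-0.19, adjusted p = 0.0461), and in both cytokine conditions: the value was -0.19 for IL-1β (adjusted p = 0.0497) and -0.24 for IL-18 (adjusted p = 0.0127). mt-Rnr2 was called lower in the second of these (-0.26, adjusted p = 0.0127). These libraries were made from poly(A) RNA, in which ribosomal RNA is a remainder.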
